A study of Mus musculus with 9 samples.

Results

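The 36 genes described here encode lysosomal proteins other than the cathepsins and the proton pump. They were chosen by gene name, with earlier results of these data known, from a fixed list. The list holds lysosomal hydrolases, their activators, lysosomal membrane proteins and the regulator Tfeb. Each of the 36 genes was found in the deposited table of 28379 genes. They were measured by RNA sequencing in mouse bone marrow-derived macrophages (BMDMs) from mice that the study's methods describe as C57BL/6J and 10 weeks old. All cultures received 20 ng/ml of M-CSF, the growth factor that keeps macrophages alive, and were kept for 48 h. The 3 groups of 3 libraries were PBS (M-CSF alone), RANKL (100 ng/ml of the cytokine that turns macrophages into osteoclasts, the bone-resorbing cells), and RANKL + Vit D + K (the same RANKL with 1000 nM calcitriol, the active form of vitamin D, and 20 μM MK4, a form of vitamin K2). This MK4 dose is that of the labels, and the paper gives another. There was no group with either vitamin alone or with the vitamins without RANKL, so an effect of calcitriol cannot be told apart from an effect of MK4. The labels do not tie the replicates to separate animals or cultures, and the study describes pooled RNA, so the p-values measure the spread between these libraries, which may be technical.

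The lysosome is the acidic compartment in which a cell breaks down material taken up from outside or delivered by autophagy. Soluble hydrolases cut sugars, sulfate groups, lipids, proteins and DNA from this material, and membrane proteins protect the compartment and carry the products out. In osteoclasts, lysosomes also fuse with the membrane that faces the bone and release their content there. Tfeb is known to raise the transcription of many lysosomal genes by binding a short element with the letters CACGTG at its centre.

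The letters CACGTG were looked for in the stretch from 250 bases before to 50 bases after each RefSeq gene start (GRCm38.p6). A window was found for 33 of the 36 genes, and Npc1, Asah1 and Plbd2 had none. Of the 33 genes, 9 held CACGTG (27.3%), namely Lamp1, Mcoln1, Gla, Gaa, Glb1, Naglu, Sgsh, Arsa and Lgmn, against 8.09% of all 27025 genes with a window. The longer form TCACGTGA was found in Mcoln1 and Gla, 6.06% of the 33, against 1.12% of all genes. Both are the same read on either strand, and every TCACGTGA is also counted as CACGTG. The stretches around the matches are printed for 3 genes that were higher with the vitamins than with RANKL (Gla, Mcoln1 and Naglu), for Sgsh, the 1 lower gene with a match, and for Lamp1, which held the most copies printed here (4) and did not pass the test. Sequences run 5′ to 3′ on the strand of the gene, with CACGTG in capitals. They lie at chrX:134601187-134601255 on the minus strand for Gla, chr8:3500423-3500486 on the plus strand for Mcoln1, chr11:101069996-101070033 on the plus strand for Naglu, chr11:119355527-119355564 on the minus strand for Sgsh, and chr8:13159075-13159158 on the plus strand for Lamp1. The stretches of Gla and Lamp1 lie wholly before the gene as the deposited table places it, while 30, 22 and 10 bases of those of Mcoln1, Naglu and Sgsh lie at the start of the gene.
Gla: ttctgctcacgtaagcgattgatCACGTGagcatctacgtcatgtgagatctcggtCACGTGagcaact
Mcoln1: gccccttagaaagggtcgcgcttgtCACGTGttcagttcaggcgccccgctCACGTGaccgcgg
Naglu: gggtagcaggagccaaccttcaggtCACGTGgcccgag
Sgsh: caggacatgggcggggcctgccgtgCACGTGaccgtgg
Lamp1: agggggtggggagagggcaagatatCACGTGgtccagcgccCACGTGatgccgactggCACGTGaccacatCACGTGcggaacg
Among the genes with a window, 3 of 7 that were higher with the vitamins than with RANKL held CACGTG, as did 1 of 9 that were lower and 5 of 17 that did not pass the test. A match is a description of these letters and was not tested as a binding site.

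Depth was nearly equal, with 65915112 to 68229647 counts per library. Replicate 2 stood apart from replicates 1 and 3 in all 3 groups, most in RANKL + Vit D + K. The count difference between replicates, as chi-square per degree of freedom, was 453 and 293 for the pairs with replicate 2 of RANKL + Vit D + K and 51.3 for the other pair, 138 and 161 against 25.1 in RANKL, and 69.8 and 76.6 against 29.6 in PBS. In 26 of the 36 genes, replicate 2 was the RANKL + Vit D + K library nearest to the RANKL mean, which was so for 58.9% of all 17002 genes tested. Counts of calls are therefore also given without the 3 libraries numbered 2, a choice made after seeing the data.

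The cell markers moved with the groups as well, and their part in the lysosomal results was not tested. The summed level of 9 osteoclast markers was 22.9 to 30.4 FPKM (fragments scaled to gene length and library size) in PBS, 487 to 1018 in RANKL and 58.2 to 93.1 in RANKL + Vit D + K. All 9 were higher in RANKL than in PBS, and 8 were lower with the vitamins than in RANKL. The exception was Atp6v0d2, with group means of 3.64, 32.9 and 24.4 FPKM in PBS, RANKL and RANKL + Vit D + K. With the vitamins, 4 of the 9 were higher and 1 lower than in PBS. The sum of 7 macrophage markers was 25840 to 30170 FPKM in PBS, 16100 to 23750 in RANKL and 3744 to 10890 with the vitamins, where 6 of the 7 were lower than in RANKL. Most of this sum was Lyz2, with group means of 26730, 19800 and 6069 FPKM in PBS, RANKL and RANKL + Vit D + K. In RANKL against PBS, 1 of the 7 was lower and 0 were higher. Of 9 neutrophil markers, whose sum was 11.1 to 128.5 FPKM in PBS and 11.3 to 148.4 in RANKL, 6 were at 0 in all libraries with the vitamins and the sum was 0.551 to 1.72. Stromal, dendritic, lymphoid and mast cell markers each summed to 0.716 FPKM at most in any library, although the table held only 3 of the 7 lymphoid and 1 of the 4 mast cell markers. Erythroid and megakaryocyte markers summed to 3.43 to 30.3 FPKM over all libraries, most of it Pf4. In bulk RNA, fewer cells of a type and less RNA per cell cannot be told apart.

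The 36 genes made up 3.10% ± 0.181 (SD, n = 3) of all counts in PBS, 2.47% ± 0.389 in RANKL and 2.05% ± 0.0458 in RANKL + Vit D + K. Psap, the precursor of the saposins that help enzymes reach their lipid substrates, was the most abundant of them by FPKM and alone held 1.36% ± 0.22, 0.977% ± 0.259 and 0.704% ± 0.0312 of the counts. Without Psap, the rest held 1.74% ± 0.0463 in PBS, 1.49% ± 0.131 in RANKL and 1.35% ± 0.0183 with the vitamins. The share of all 36 was 2.90% or more in each PBS library and 2.10% or less in each library with the vitamins, and RANKL replicate 2, at 2.03%, lay within the range of the vitamins group. By mean FPKM over the 9 libraries, the levels ran from 6.42 for Tfeb and 7.32 for Arsb to 784 for Lamp1 and 3291 for Psap.

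**Figure D1:**
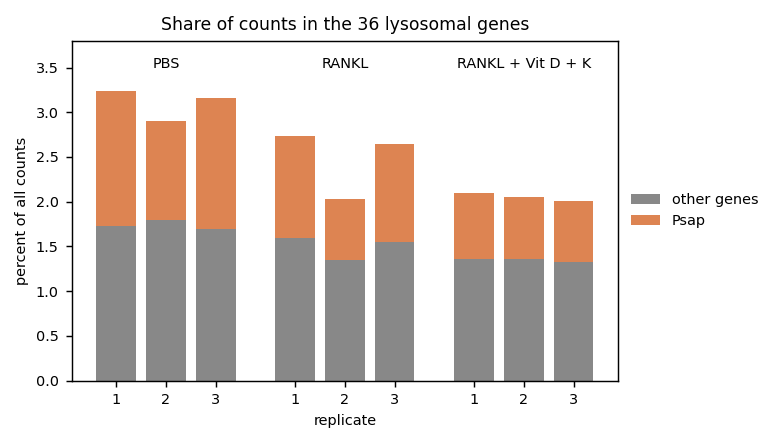
Percent of all counts (vertical axis) in the lysosomal genes for each of the 9 libraries, with Psap stacked in orange on the other genes in grey. The PBS bars reach 3.24, 2.90 and 3.16%, the RANKL bars 2.74, 2.03 and 2.65%, and the RANKL + Vit D + K bars 2.10, 2.05 and 2.01%.

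The first comparison asks what RANKL did to these genes in 48 h. Few passed the test: 4 of the 36 were lower in RANKL than in PBS (11.1%, against 1.26% of all genes tested) and 0 were higher (2.35% of all genes tested were). The 4 were the membrane protein Laptm5, the β-galactosidase Glb1, the acid lipase Lipa and the thioesterase Ppt1. The median log2 fold change of the 36 was -0.29 against -0.04 for all genes tested, and 26 of the 36 were below 0. By edgeR at an unadjusted p under 0.05, 2 genes were higher and 15 lower, beside 9.96% and 8.65% of all genes tested. DESeq2 called 1 higher and 7 lower, beside 5.86% and 3.07% of all genes with an adjusted p.

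Ppt1, which removes palmitate from proteins, measured 47.3, 46.7 and 47.6 FPKM in PBS and 30.7, 25.9 and 32.8 FPKM in RANKL. The groups did not overlap, and the log2 fold change was -0.78 ± 0.15 (SE; adjusted p = 0.0262). Cap1 overlaps Ppt1 on the other strand. Lipa, which frees cholesterol from its esters inside the lysosome, measured 264, 263 and 248 FPKM in PBS and 207, 196 and 177 FPKM in RANKL. Its groups were separate too, with a log2 fold change of -0.55 ± 0.11 (adjusted p = 0.0267).

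Glb1, which removes galactose from gangliosides and keratan sulfate, measured 45.7, 56.8 and 45.8 FPKM in PBS and 37.3, 33.2 and 38.2 FPKM in RANKL. All 3 RANKL libraries were below the lowest of PBS, and the log2 fold change was -0.57 ± 0.12 (adjusted p = 0.0427). Another gene, Tmppe, overlaps Glb1 on the same strand, so reads of the 2 may not have been told apart. Laptm5, a lysosomal membrane protein of blood cells, measured 367, 369 and 347 FPKM in PBS and 297, 247 and 280 FPKM in RANKL, again without overlap. Its log2 fold change was -0.51 ± 0.12 (adjusted p = 0.0484).

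None of these 4 calls held in every fit with 1 library fewer: all 4 were lost when PBS replicate 1, 2 or 3, RANKL replicate 1 or 2, or RANKL + Vit D + K replicate 3 was left out, with adjusted p-values up to 0.132 to 0.187. In these 6 fits the share of all genes called lower fell too, from 1.26% to between 0.169% and 0.645%. Without the 3 libraries numbered 2, 8 genes were lower and 2 higher, but calls over all genes rose as well, to 4.37% lower and 5.73% higher. With the replicate number as a block, 5 were lower and 1 higher, beside 1.69% and 3.16% of all genes tested: Psap (adjusted p = 0.0393) and Lgmn, which cuts proteins after asparagine (adjusted p = 0.0466), were lower, Glb1 was no longer called (adjusted p = 0.0599), and the 1 higher gene was Arsb.

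Arsb, a sulfatase that acts on dermatan and chondroitin sulfate, was singled out after its values were seen. It measured 2.35, 5.35 and 2.43 FPKM in PBS, 9.40, 18.3 and 7.93 FPKM in RANKL, and 4.73, 9.93 and 5.53 FPKM in RANKL + Vit D + K. RANKL and PBS did not overlap, and replicate 2 was the highest of each group. The log2 fold change of RANKL over PBS was 1.68 ± 0.40 (adjusted p = 0.0531), and 1.70 with the replicate block (adjusted p = 0.00263). Non-coding genes overlap Arsb on both strands, and whether the counting used the strand is not stated.

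**Figure D2:**
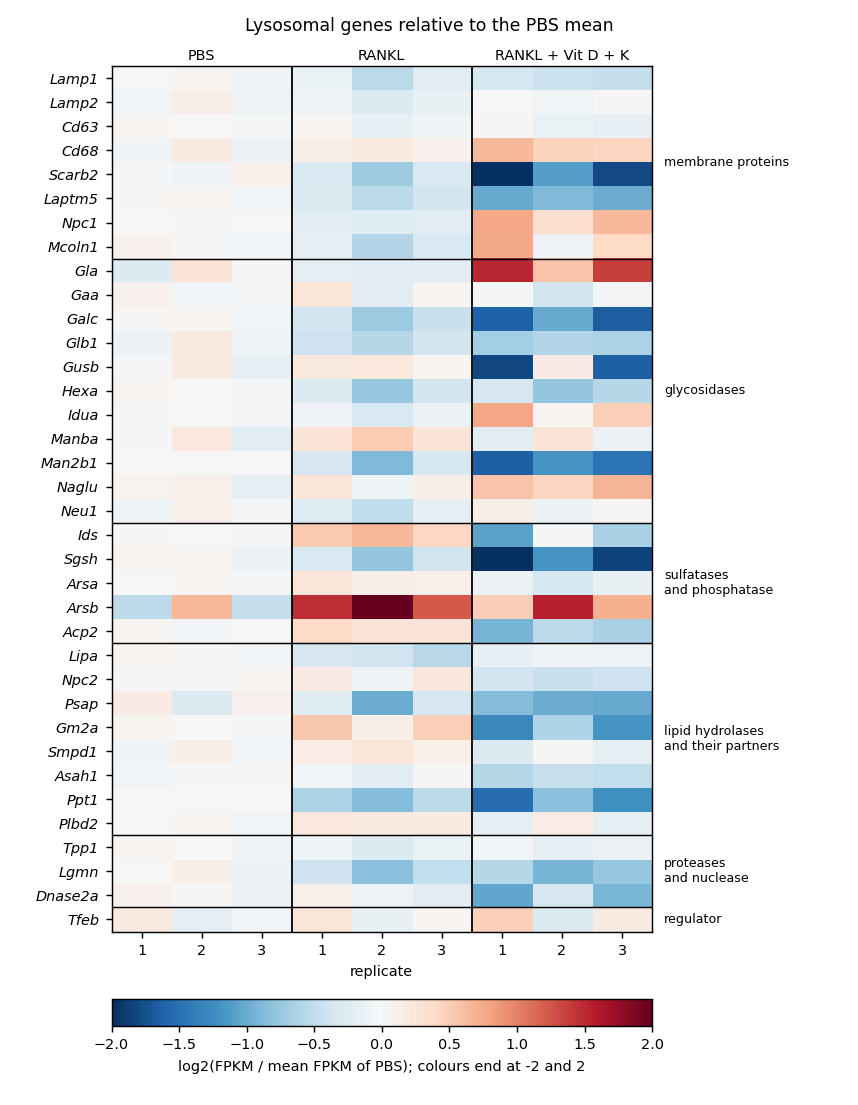
Each row is 1 of the 36 genes and each column 1 library; colour gives the log2 ratio of its FPKM to the mean FPKM of PBS, red above and blue below. In RANKL + Vit D + K the rows of Gla and Npc1 are red and those of Scarb2, Galc, Man2b1 and Sgsh blue, with replicate 2 paler than replicates 1 and 3 in these rows.

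The second comparison asks what calcitriol and MK4 changed in cells given RANKL. The genes went in both directions: 8 were higher with the vitamins (Cd68, Npc1, Mcoln1, Gla, Idua, Naglu, Neu1 and Lipa) and 9 were lower (Scarb2, Laptm5, Galc, Man2b1, Ids, Sgsh, Acp2, Gm2a and Dnase2a). These are 22.2% and 25% of the 36, beside 16.4% and 17.2% of all genes tested. The median log2 fold change was -0.15 against -0.04 for all genes tested. Without the libraries numbered 2 the counts were 9 higher and 16 lower, beside 24.6% and 27.4% of all genes tested in that fit. By limma on log2(FPKM + 1), without TMM scaling, they were 8 higher and 13 lower, beside 13% and 22.4% of all genes, and higher genes were 36.8% of all genes called rather than 48.8%.

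**Figure D3:**
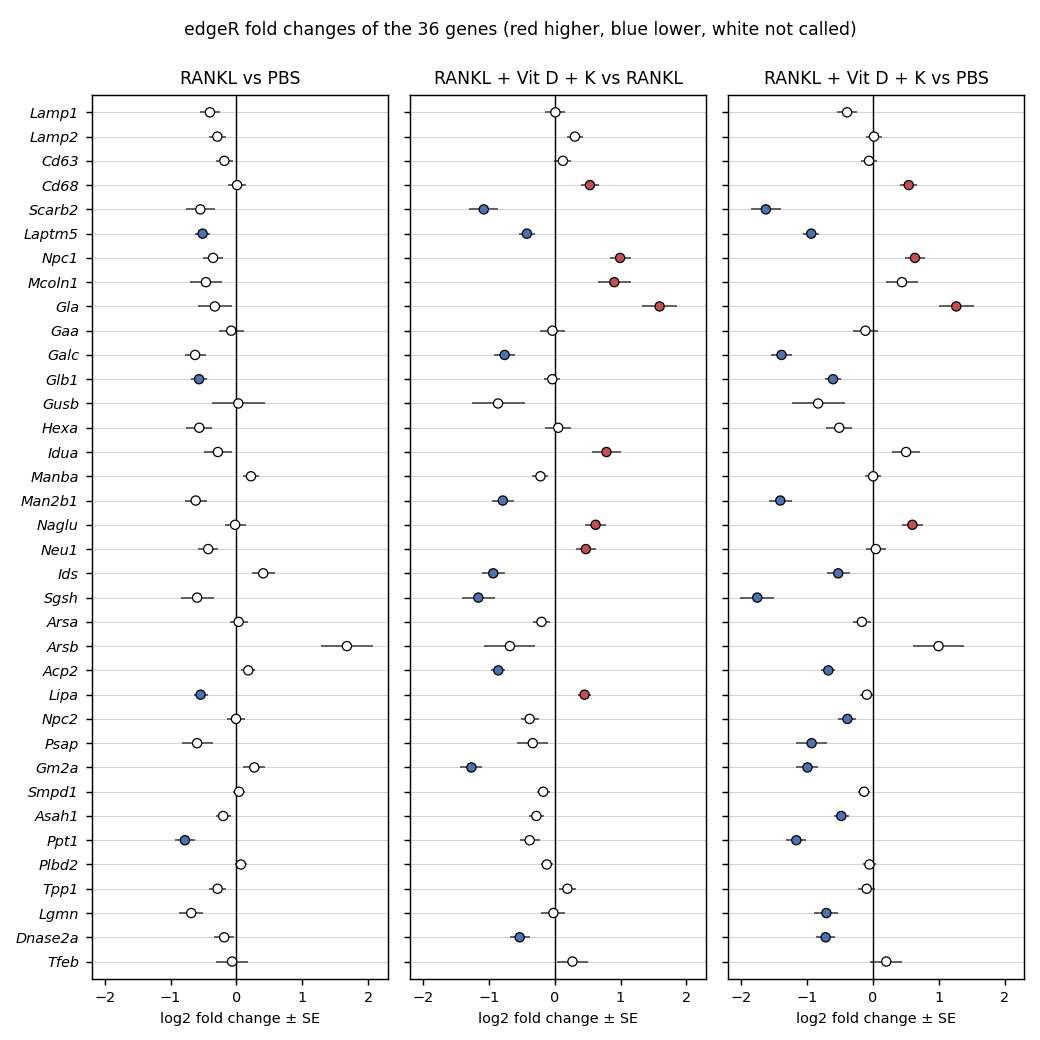
Log2 fold change with its standard error (horizontal axis) of the 36 genes in the 3 comparisons, red where higher, blue where lower and white where the adjusted p was 0.05 or more. The middle panel holds 8 red and 9 blue points, from Gm2a at -1.27 to Gla at 1.59.

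Of the 8 membrane proteins, 3 were higher and 2 lower than in RANKL (37.5% and 25%, beside 16.4% and 17.2% of all genes tested). Npc1, which moves cholesterol out of the lysosome, measured 35.2, 35.9 and 35.4 FPKM in PBS, 30.5, 29.9 and 30.2 FPKM in RANKL, and 60.6, 45.0 and 55.7 FPKM in RANKL + Vit D + K. The vitamins libraries were above all others, with a log2 fold change over RANKL of 0.99 ± 0.16 (adjusted p = 0.00264). Npc1 is overlapped on the other strand by the antisense gene Gm15956 and by Rmc1.

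Mcoln1, the calcium channel through which lysosomes signal, measured 12.2, 11.3 and 11.1 FPKM in PBS, 10.2, 7.74 and 9.39 FPKM in RANKL, and 19.5, 10.8 and 15.3 FPKM with the vitamins. Replicate 2 with the vitamins was the lowest of its group, below all 3 PBS libraries, and above the highest RANKL library. The log2 fold change over RANKL was 0.91 ± 0.25 (adjusted p = 0.0214); the call was lost without RANKL replicate 2 or 3 or RANKL + Vit D + K replicate 1 or 3 (adjusted p up to 0.0656).

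Cd68, a heavily glycosylated membrane protein of macrophages, measured 481, 568 and 463 FPKM in PBS, 549, 575 and 534 FPKM in RANKL, and 789, 683 and 681 FPKM with the vitamins. All libraries with the vitamins were above the other 6, and the log2 fold change over RANKL was 0.53 ± 0.13 (adjusted p = 0.0143). Leaving out RANKL replicate 1 or 3 ended this call, with an adjusted p of 0.0511 at most. Cd68 rose while 6 of the 7 macrophage markers were lower.

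Scarb2, known as the receptor that carries glucocerebrosidase to the lysosome, measured 41.4, 40.0 and 45.1 FPKM in PBS, 34.1, 25.6 and 34.2 FPKM in RANKL, and 9.35, 19.7 and 12.1 FPKM with the vitamins. The groups did not overlap, and the log2 fold change over RANKL was -1.08 ± 0.22 (adjusted p = 0.00703). Laptm5 measured 180, 196 and 181 FPKM with the vitamins, below the RANKL range given above. Its log2 fold change was -0.42 ± 0.12 (adjusted p = 0.0227), a call lost without RANKL replicate 1 or 3 or RANKL + Vit D + K replicate 3 (adjusted p up to 0.097).

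The main glycoproteins of the lysosomal membrane did not pass the test. Lamp1 measured 922, 954 and 872 FPKM in PBS, 832, 632 and 789 FPKM in RANKL, and 714, 677 and 660 FPKM with the vitamins, where RANKL replicate 2 was the lowest of all 9 libraries. Lamp2 measured 73.7, 83.8 and 71.4 FPKM in PBS, 71.1, 63.3 and 68.98 FPKM in RANKL, and 76.2, 73.1 and 77.5 FPKM with the vitamins. On the count scale, the log2 fold changes over RANKL were 0.01 ± 0.15 for Lamp1 (adjusted p = 0.966) and 0.31 ± 0.12 for Lamp2 (adjusted p = 0.0865). The tetraspanin Cd63 had group means of 122, 117 and 115 FPKM in PBS, RANKL and RANKL + Vit D + K.

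Among the 11 glycosidases, 4 were higher and 2 lower than in RANKL (36.4% and 18.2%, beside 16.4% and 17.2% of all genes tested). Gla, the α-galactosidase that degrades globotriaosylceramide, measured 27.1, 39.4 and 31.7 FPKM in PBS, 28.5, 28.4 and 28.2 FPKM in RANKL, and 93.0, 48.9 and 85.5 FPKM with the vitamins. Every library with the vitamins was above every other, replicate 2 by the least. The log2 fold change over RANKL was 1.59 ± 0.27 (adjusted p = 0.00326), the largest rise among the 36, and it was 1.83 without the libraries numbered 2.

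Idua and Naglu both act in the breakdown of heparan sulfate, Idua on its iduronic acid and Naglu on its glucosamine. Idua measured 14.4, 14.4 and 14.0 FPKM in PBS, 13.6, 11.6 and 13.1 FPKM in RANKL, and 24.4, 14.7 and 19.8 FPKM with the vitamins. Its replicate 2 with the vitamins exceeded the highest PBS library only slightly, and the log2 fold change over RANKL was 0.79 ± 0.21 (adjusted p = 0.0214). The call was lost when any RANKL library or RANKL + Vit D + K replicate 1 or 3 was left out (adjusted p up to 0.0654), and Dgkq and Slc26a1 overlap Idua on the other strand.

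Naglu measured 27.0, 27.5 and 22.7 FPKM in PBS, 30.5, 24.0 and 28.1 FPKM in RANKL, and 38.4, 34.7 and 41.4 FPKM with the vitamins. The 3 libraries with the vitamins were the highest, and the log2 fold change over RANKL was 0.62 ± 0.16 (adjusted p = 0.0169; 0.0587 without RANKL + Vit D + K replicate 3). Neu1, the sialidase, measured 38.9, 44.2 and 40.1 FPKM in PBS, 34.2, 29.0 and 36.04 FPKM in RANKL, and 44.3, 37.9 and 41.8 FPKM with the vitamins. The vitamins and PBS libraries of Neu1 overlapped, while both lay above RANKL. Its log2 fold change over RANKL was 0.47 ± 0.15 (adjusted p = 0.0401), and of the 9 fits with 1 library fewer only that without RANKL + Vit D + K replicate 2 kept the call (adjusted p up to 0.107).

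Man2b1, the lysosomal α-mannosidase, measured 136, 136 and 135 FPKM in PBS, 108, 73.2 and 106 FPKM in RANKL, and 43.6, 59.7 and 48.4 FPKM with the vitamins. The groups were separate, with a log2 fold change over RANKL of -0.79 ± 0.17 (adjusted p = 0.00861). Galc, which removes galactose from galactosylceramide, measured 13.5, 13.7 and 12.9 FPKM in PBS, 10.3, 8.04 and 9.81 FPKM in RANKL, and 4.33, 6.64 and 4.26 FPKM with the vitamins. It too had no overlap between groups, with a log2 fold change of -0.76 ± 0.16 (adjusted p = 0.00741), and the antisense gene Gm47439 overlaps it.

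The other 5 glycosidases, Gaa, Glb1, Gusb, Hexa and Manba, did not pass the test against RANKL. Gusb, the β-glucuronidase, was singled out after its values were seen: it measured 87.0, 101 and 79.9 FPKM in PBS, 102, 104 and 91.5 FPKM in RANKL, and 25.2, 100.5 and 28.8 FPKM with the vitamins. Replicate 2 with the vitamins lay inside the range of the other groups, and the other two libraries were far below it. The log2 fold change was -0.86 ± 0.40 (adjusted p = 0.129), and Gusb was called lower when that library was left out. Hexa, a subunit of β-hexosaminidase, had group means of 487, 357 and 332 FPKM, Gaa, which degrades glycogen, 26.4, 27.1 and 23.8 FPKM, and Manba, the β-mannosidase, 8.60, 10.9 and 8.53 FPKM in PBS, RANKL and RANKL + Vit D + K.

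Of the 4 sulfatases and the acid phosphatase Acp2, 3 were lower than in RANKL (60%, beside 17.2% of all genes tested). By edgeR 0 were higher, beside 16.4% of all genes tested. Also 0 were higher by edgeR at an unadjusted p under 0.05, beside 21.1%, and 0 by DESeq2, beside 15.7%. Sgsh and Ids remove sulfate groups from heparan sulfate, the polymer on which Idua and Naglu also act. Sgsh measured 22.4, 22.5 and 20.0 FPKM in PBS, 17.4, 12.7 and 16.3 FPKM in RANKL, and 3.77, 9.51 and 6.02 FPKM with the vitamins. Its groups did not overlap, and the log2 fold change over RANKL was -1.16 ± 0.25 (adjusted p = 0.00911). Card14 overlaps Sgsh on the other strand.

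Ids measured 18.4, 18.2 and 17.8 FPKM in PBS, 26.1, 28.4 and 24.2 FPKM in RANKL, and 8.62, 17.6 and 11.5 FPKM with the vitamins. RANKL was the highest group, although its difference from PBS, 0.41 ± 0.17 on the log2 scale, did not pass the test (adjusted p = 0.253). The log2 fold change of the vitamins over RANKL was -0.93 ± 0.18 (adjusted p = 0.00496).

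Acp2 measured 37.5, 35.0 and 35.9 FPKM in PBS, 47.3, 43.4 and 43.0 FPKM in RANKL, and 18.9, 25.1 and 23.1 FPKM with the vitamins. Its log2 fold change over RANKL was -0.86 ± 0.11 (adjusted p = 0.00108), the smallest adjusted p of the 36 in this comparison. Ddb2 overlaps Acp2 on the other strand. Arsa, the sulfatase for sulfatide, had group means of 12.4, 13.8 and 10.8 FPKM in PBS, RANKL and RANKL + Vit D + K and did not pass the test in any comparison.

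Of the 8 lipid hydrolases and their partners, 1 was higher and 1 lower than in RANKL. These are 12.5% each, beside 16.4% and 17.2% of all genes tested. Gm2a, which presents the ganglioside GM2 to β-hexosaminidase, measured 59.4, 57.2 and 55.6 FPKM in PBS, 83.1, 62.1 and 80.1 FPKM in RANKL, and 23.4, 37.2 and 25.5 FPKM with the vitamins. The groups were separate, and the log2 fold change over RANKL was -1.27 ± 0.17 (adjusted p = 0.00129), the largest fall of the 36 in the fit of all 9 libraries. Without the libraries numbered 2 it was -1.56, and that of Sgsh was -1.61. Lipa measured 232, 244 and 240 FPKM with the vitamins, above the RANKL libraries and below those of PBS. It rose over RANKL by 0.45 ± 0.11 on the log2 scale (adjusted p = 0.0116; 0.0536 without RANKL replicate 3) and is the 1 gene of the 36 that fell with RANKL and rose with the vitamins.

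Npc2, the soluble protein that hands cholesterol to Npc1, measured 202, 201 and 210 FPKM in PBS, 230, 196 and 238 FPKM in RANKL, and 157, 150 and 154 FPKM with the vitamins. All libraries with the vitamins were below the others, but the log2 fold change over RANKL, -0.38 ± 0.14, missed the threshold (adjusted p = 0.057). It passed by DESeq2, by limma at each setting, with RLE normalization, without a filter, with the replicate block and without the libraries numbered 2. It did not pass with only the 2 groups compared, and of the fits with 1 library fewer it passed only without RANKL replicate 2. Psap measured 4947, 3623 and 4705 FPKM in PBS, 3759, 2226 and 3520 FPKM in RANKL, and 2414, 2232 and 2191 FPKM with the vitamins. RANKL replicate 2 lay among the libraries with the vitamins, and the log2 fold change over RANKL was -0.33 ± 0.23 (adjusted p = 0.301). Smpd1, the acid sphingomyelinase, Asah1, the acid ceramidase, Ppt1 and the phospholipase B-like protein Plbd2 did not pass the test, with log2 fold changes of -0.17, -0.28, -0.38 and -0.12.

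Of the proteases and the nuclease, Dnase2a, which cuts DNA in the lysosome, measured 23.8, 23.0 and 20.7 FPKM in PBS, 24.2, 21.0 and 19.5 FPKM in RANKL, and 11.0, 18.0 and 12.0 FPKM with the vitamins. The libraries with the vitamins were below all others. Dnase2a was lower than in RANKL by a log2 fold change of -0.53 ± 0.15 (adjusted p = 0.0238), a call lost without RANKL replicate 1 or 3 or RANKL + Vit D + K replicate 1 or 3 (adjusted p up to 0.0999). Mast1 overlaps Dnase2a on the other strand. Tpp1, which removes tripeptides from protein ends, had group means of 72.6, 64.7 and 66.6 FPKM and Lgmn 393, 265 and 235 FPKM in PBS, RANKL and RANKL + Vit D + K, and neither passed the test against RANKL.

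Tfeb itself measured 7.01, 5.46 and 5.85 FPKM in PBS, 7.26, 5.48 and 6.28 FPKM in RANKL, and 8.48, 5.06 and 6.91 FPKM with the vitamins. The 3 groups overlapped, and the log2 fold change of the vitamins over RANKL was 0.27 ± 0.24 (adjusted p = 0.42). Its RNA level does not measure where the protein is in the cell, which is known to control it.

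**Figure D4:**
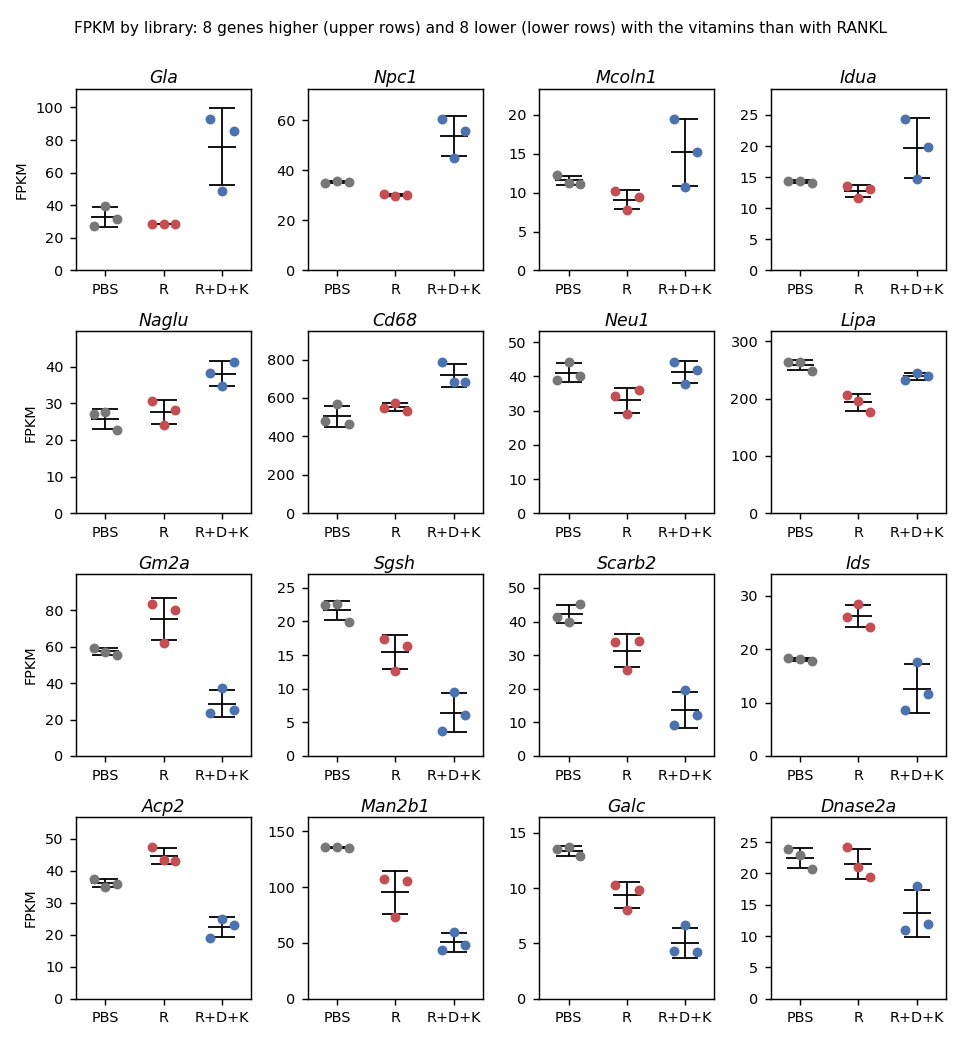
FPKM per library (points) with mean and SD (bars) in PBS, RANKL (R) and RANKL + Vit D + K (R+D+K) for the 8 genes higher with the vitamins (upper rows) and the 8 with the largest falls (lower rows). In the lower rows replicate 2 is the highest of the 3 libraries with the vitamins in every panel, as for Sgsh at 9.51 FPKM against 3.77 and 6.02.

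Of the 17 calls against RANKL, 9 held in all 9 fits with 1 library fewer: Scarb2, Npc1, Gla, Galc, Man2b1, Ids, Sgsh, Acp2 and Gm2a. The count of higher genes moved most, from 8 to 3 without RANKL replicate 3, to 4 without RANKL + Vit D + K replicate 3, and to 5 without RANKL replicate 1 or 2 or RANKL + Vit D + K replicate 1. Over all genes, the share called higher fell from 16.4% to 9.88% without RANKL replicate 3, to 9.14% without RANKL + Vit D + K replicate 3, and to 8.91%, 14.2% and 10.1% in the last 3 of these fits. Replicate 2 with the vitamins was the library nearest to the RANKL mean in 15 of the 17 genes (88.2%), against 75.8% of all 5725 genes called in this comparison.

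The third comparison sets RANKL + Vit D + K against PBS, and so shares its libraries with the other two. Here 4 genes were higher (Cd68, Npc1, Gla and Naglu; 11.1%, against 19.8% of all genes tested) and 15 lower (41.7%, against 21% of all genes tested). The median log2 fold change was -0.28, beside -0.04 for all genes tested. Without the libraries numbered 2, 7 were higher and 18 lower, beside 25.9% and 27.8% of all genes tested in that fit.

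The 4 higher genes were also higher than in RANKL, and their log2 fold changes over PBS were 1.27 ± 0.27 for Gla (adjusted p = 0.0056), 0.64 ± 0.16 for Npc1 (adjusted p = 0.0116), 0.60 ± 0.16 for Naglu (adjusted p = 0.0158) and 0.54 ± 0.13 for Cd68 (adjusted p = 0.0106). Mcoln1, Idua and Neu1, which were higher than in RANKL, did not pass the test against PBS, with log2 fold changes of 0.44, 0.50 and 0.04. Lipa stood at -0.09 ± 0.11 relative to PBS (adjusted p = 0.516).

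All 9 genes that were lower than in RANKL were also lower than in PBS. The largest falls were in Sgsh (-1.76 ± 0.26, adjusted p = 0.00117), Scarb2 (-1.63 ± 0.22, adjusted p = 0.0009), Man2b1 (-1.41 ± 0.17, adjusted p = 0.000566) and Galc (-1.39 ± 0.16, adjusted p = 0.000434). Laptm5 was lower in each of the 3 comparisons, by a log2 fold change of -0.94 ± 0.12 here (adjusted p = 0.000625). Ppt1 (-1.16 ± 0.15, adjusted p = 0.000721) and Glb1 (-0.61 ± 0.12, adjusted p = 0.00505), both lower with RANKL alone, were lower here too.

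Psap, Lgmn, Asah1 and Npc2, which did not pass the test in the other comparisons without the replicate block, were lower here, with log2 fold changes of -0.93 ± 0.24 for Psap (adjusted p = 0.013), -0.71 ± 0.18 for Lgmn (adjusted p = 0.0139), -0.48 ± 0.12 for Asah1 (adjusted p = 0.0101) and -0.39 ± 0.14 for Npc2 (adjusted p = 0.0464). Of the 19 calls, 16 held in all fits with 1 library fewer. Psap missed the threshold without PBS replicate 1 (adjusted p = 0.0503), Ids held in 1 of the 9 fits, that without RANKL + Vit D + K replicate 2 (adjusted p up to 0.16), and Npc2 in 1, that without RANKL replicate 2 (adjusted p up to 0.153).

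Of the 36 genes, 13 passed in none of the 3 comparisons without the replicate block: Lamp1, Lamp2, Cd63, Gaa, Gusb, Hexa, Manba, Arsa, Arsb, Smpd1, Plbd2, Tpp1 and Tfeb. A further annotated gene overlapped 15 of the 36, and for 10 of these it was protein-coding.

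A further 85 lysosome genes in 4 lists, again without cathepsins and proton pump subunits, cover more of the pathway. These lists too were chosen with earlier results of these data known. With the vitamins, 25 were higher and 15 lower than in RANKL (29.4% and 17.6%, beside 16.4% and 17.2% of all genes tested), with a median log2 fold change of 0.24. RANKL alone gave 5 higher and 1 lower than PBS (5.88% and 1.18%, beside 2.35% and 1.26% of all genes tested), although 64 of the 85 log2 fold changes were below 0, with a median of -0.20 and 8 higher and 15 lower at an unadjusted p under 0.05. The vitamins gave 25 higher and 19 lower than PBS (29.4% and 22.4%, beside 19.8% and 21%).

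The list of regulators and nutrient sensing covers the relatives of Tfeb and the proteins that recruit the growth kinase mTORC1 to the lysosome. It had 7 of 17 genes higher and 2 lower than in RANKL (41.2% and 11.8%, beside 16.4% and 17.2% of all genes tested). Its largest rise was in Rragd, a small GTPase of that machinery, which measured 1.77, 1.89 and 1.75 FPKM in PBS, 1.58, 0.915 and 1.84 FPKM in RANKL, and 18.4, 2.71 and 14.9 FPKM with the vitamins. Replicate 2 with the vitamins was above all PBS and RANKL libraries but far below the other two, and the log2 fold change over RANKL was 3.24 ± 0.64 (adjusted p = 0.00605). Fnip2, Fnip1 and Flcn, known as partners in a complex that acts on the Rag GTPases and named here after their values were seen, had log2 fold changes of 2.65 ± 0.46 (adjusted p = 0.00373), 2.07 ± 0.40 (adjusted p = 0.00568) and 1.21 ± 0.34 (adjusted p = 0.0238). Fnip2 measured 209, 55.5 and 191 FPKM with the vitamins against 21.9 to 30.4 FPKM in RANKL, and Fnip1 93.8, 28.03 and 78.8 FPKM against 17.4 to 19.0 FPKM. Flcn measured 62.6, 24.0 and 54.5 FPKM with the vitamins, where replicate 2 lay inside the RANKL range of 19.9 to 24.6 FPKM and below all PBS libraries. The largest fall was in Lamtor4, a subunit of the lysosomal scaffold for the same GTPases, at -0.81 ± 0.19 (adjusted p = 0.0112).

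The list of 25 other hydrolases also holds enzymes of other kinds, such as Hgsnat and Ifi30. Of the 25, 8 were higher and 6 lower than in RANKL (32% and 24%, beside 16.4% and 17.2% of all genes tested). Hyal1, a hyaluronidase, had the largest rise: it measured 1.03, 1.10 and 0.778 FPKM in PBS, 2.19, 3.17 and 1.56 FPKM in RANKL, and 20.9, 7.19 and 18.8 FPKM with the vitamins, without overlap, and the log2 fold change over RANKL was 2.96 ± 0.43 (adjusted p = 0.00185). Hgsnat, which acetylates heparan sulfate ahead of Naglu and was named after its values were seen, was higher by 1.75 ± 0.23 (adjusted p = 0.00127). Ifi30, a thiol reductase, had the largest fall: it measured 140, 182 and 122 FPKM in PBS, 441, 431 and 407 FPKM in RANKL, and 91.3, 205 and 102 FPKM with the vitamins. The RANKL libraries stood above the other 6, with a log2 fold change of -1.57 ± 0.25 for the vitamins over RANKL (adjusted p = 0.0024).

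Of 28 other membrane proteins and transporters, 7 were higher and 6 lower than in RANKL. These are 25% and 21.4%, beside 16.4% and 17.2% of all genes tested. The channel Mcoln3, a relative of Mcoln1, had the largest rise, 1.85 ± 0.23 (adjusted p = 0.000948), from a low level of 1.37 ± 0.128 FPKM (SD, n = 3) in RANKL to 4.42 ± 0.786 FPKM. The amino acid transporter Slc36a1 had the largest fall, -1.63 ± 0.27 (adjusted p = 0.00285). Of 15 genes for enzyme sorting and maturation, 3 were higher and 1 lower (20% and 6.67%, beside 16.4% and 17.2% of all genes tested). The largest changes were in Cln8, at 1.29 ± 0.23 (adjusted p = 0.00415), and the sorting receptor Sort1, at -1.27 ± 0.30 (adjusted p = 0.0126).

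**Figure D5:**
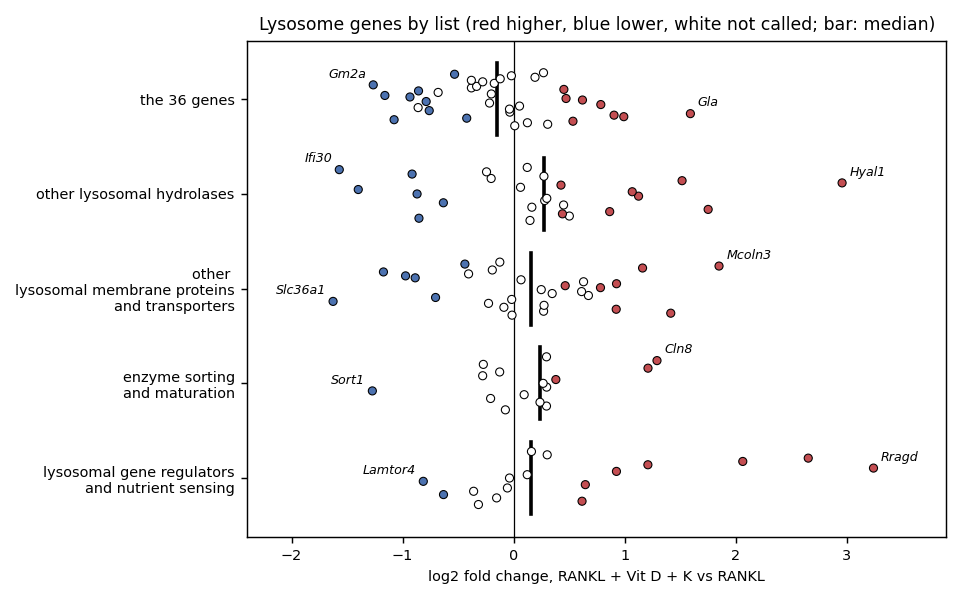
Log2 fold change of RANKL + Vit D + K over RANKL (horizontal axis) for the 36 genes and 4 lists of other lysosome genes, 1 point per gene, red where higher and blue where lower at an adjusted p under 0.05, with a black bar at the median. The regulators and nutrient sensing list reaches 3.24 at Rragd, and the 36 genes run from -1.27 at Gm2a to 1.59 at Gla.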

How the data were processed

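Poly(A) RNA of 9 libraries was sequenced by the authors as paired reads of 150 bases. The deposited table gives, for each gene and library, raw counts as the authors deposited them and FPKM values, which the authors scaled to gene length and library size. The submitters' processing notes name cutadapt 1.9, HISAT2 2.0.4, StringTie 1.3.4d, edgeR and the human build hg38. The gene identifiers are those of mouse, and 24678 of the 28379 genes, with 30 of the 36 described here, have the coordinates of GENCODE M21 (GRCm38), so overlaps between genes were taken from that annotation. Whether counting used the strand, and how reads shared by similar or overlapping genes were counted, is not stated. A count need not be 1 independent molecule, since there were no molecular identifiers.

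In edgeR 4.0.16 under R 4.3.3, filterByExpr kept 17002 genes, among them all 36, and the quasi-likelihood test with TMM normalization was fitted in 1 model of the 9 libraries, with Benjamini-Hochberg adjustment over all genes tested and a threshold of 0.05. "Higher", "lower", "rose" and "fell" refer to this test. Standard errors were taken as the absolute log2 fold change over the root of F. FPKM levels are not TMM-scaled, so their ratios can differ from the fold changes. The test was checked on simulated counts drawn independently for each library. They held no deviation of replicate 2, so the check does not cover that feature of the data.

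Replicate numbers come from the labels. In RANKL and PBS, libraries with the same number deviated together (correlations over genes of 0.122, 0.219 and 0.155 for numbers 1, 2 and 3), so the values with the replicate block are given beside that comparison. Alternatives were DESeq2 1.42.0, median-of-ratios (RLE) normalization, no filter, limma 3.58.1 on log2(FPKM + 1) and log2(FPKM + 0.1), a minimum mean FPKM of 1, only the 2 groups compared, the replicate block and leaving out each library. The 36 genes, the other lists and the markers were chosen with earlier results of these data known. Each library's value is given for every gene called in RANKL against PBS, for the 8 largest rises and the 8 largest falls with the vitamins against RANKL, and for Tfeb, Mcoln1, Lamp1, Lamp2, Npc1, Npc2 and Psap. From each other list, the largest called change in either direction is named. Promoter windows were matched by symbol to RefSeq (GRCm38.p6).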

Additional observations from a re-analysis of the deposited data

How the results depend on the processing

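No fold change of a called gene turned its direction under any alternative. In RANKL against PBS (0 higher, 4 lower), DESeq2 gave 1 and 7, the 2 groups alone 2 and 8, and the fit without the libraries numbered 2, added after seeing the data, 2 and 8. The replicate block gave 1 and 5. No filter and limma on log2(FPKM + 1) each gave 0 higher and 1 lower, limma on log2(FPKM + 0.1) 1 higher and 1 lower, and limma with a minimum mean FPKM of 1 gave 1 higher and 3 lower. Over all genes, these 3 limma settings called 578 higher and 250 lower, 605 and 207, and 519 and 209, beside 400 and 214 by edgeR. The calls over all genes without a filter are not given here. Leaving out 1 library gave 0 to 2 higher and 0 to 9 lower. Calls over all genes moved as well: 6.32% were higher and 4.29% lower with the 2 groups alone, and 0.54% to 5.46% and 0.169% to 5.23% with 1 library left out. In the vitamins against RANKL (8 higher, 9 lower), the 2 groups alone gave 5 higher and 7 lower (12% and 11.9% of all genes). Limma with the minimum gave 8 and 15, beside 2164 and 3198 calls over all genes. The fit without the libraries numbered 2 gave 9 and 16 (24.6% and 27.4% of all genes). Leaving out 1 library gave 3 to 9 higher and 7 to 13 lower (8.91% to 21.2% and 9.16% to 25.2% of all genes). Against PBS (4 higher, 15 lower), the fit without the libraries numbered 2 gave 7 and 18. The cause of these moves was not tested. With the replicate block, the vitamins gave 8 higher and 11 lower against RANKL, beside 2954 and 2919 of all 17002 genes, and 5 higher and 17 lower against PBS, beside 3470 and 3571, with Arsb and Npc2 gained as lower in the former and, in the latter, Arsb gained as higher and Lamp1 and Hexa as lower; no called gene of the 36 lost its call under it in these 2 comparisons, in which not every library correlated best with its own number. The split also moved between edgeR on counts and limma on FPKM, which differ in test, scaling and pseudocount at once: of all genes called in the vitamins against RANKL, 48.8% were higher by edgeR and 36.8%, 35.6% and 40.4% by limma at the 3 settings named above, and of the 36, 47.1% against 38.1%, 38.1% and 34.8%. The median over all genes tested in that comparison, on the log2 scale, was -0.04 by edgeR, -0.07 by limma with the pseudocount of 1 and -0.16 with that of 0.1, and the median over the 36 was -0.15, -0.27 and -0.29. In RANKL against PBS these medians were -0.04, 0.04 and 0.07, and -0.29, -0.16 and -0.17. With 3 libraries a group, an exact permutation test of 1 gene cannot give a p below 0.1, and differences smaller than those called may be missed.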
